A study of Mus musculus with 12 samples.

Results

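A set of 8 genes of arginine, nitric oxide and itaconate metabolism was followed in mouse macrophages with and without the histone methyltransferase DOT1L, at rest and after lipopolysaccharide (LPS). The genes were Nos2, Arg1, Arg2, Slc7a2, Ass1, Asl, Gch1 and Acod1, chosen by name as 8 of the 24445 genes in the deposited count tables, and for each the transcript with most reads in total was used. The cells were bone marrow-derived macrophages of C57BL/6 mice, cultured for 7 to 8 days in L929-conditioned medium, which supplies the growth factor M-CSF. Wild type (WT) and knockout (KO) cells were each measured untreated and with LPS, which makes 4 groups of 3 libraries. LPS, a cell wall component of Gram-negative bacteria that activates the receptor TLR4, was given at 10 ng/mL for 3 hours. The labels call the mice myeloid DOT1L WT or KO and name Lyz2 beside the strain. They do not state which exons are deleted, whether the WT mice carry the Lyz2 allele too, or the age of the animals. The libraries are called biological replicates without naming the animals, so p-values measure the spread between these libraries.

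Nitric oxide and itaconate are products of activated mouse macrophages. Inducible nitric oxide synthase, encoded by Nos2, makes nitric oxide and citrulline from arginine. It needs the cofactor tetrahydrobiopterin, whose synthesis starts with GTP cyclohydrolase (Gch1), and arginine that enters the cell through the transporter CAT2 (Slc7a2). Argininosuccinate synthase (Ass1) and argininosuccinate lyase (Asl) turn citrulline back into arginine. Arginase 1 (Arg1, cytosolic) and arginase 2 (Arg2, mitochondrial) instead split arginine into ornithine and urea, and ornithine feeds polyamine and proline synthesis. Aconitate decarboxylase (Acod1, also called Irg1) draws on the citrate cycle to make itaconate, which inhibits succinate dehydrogenase.

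Promoter sequence was at hand for 3 of the 8 genes: Ass1, Gch1 and Acod1 (RefSeq, GRCm38.p6, 250 bases before to 50 bases after the start). The stretches before the start of Gch1 and Acod1 are shown because both genes rose with LPS and both hold a motif match, with matches in capitals. They lie at chr14:47189414-47189663 on the minus strand for Gch1 and chr14:103046762-103047011 on the plus strand for Acod1.
Gch1: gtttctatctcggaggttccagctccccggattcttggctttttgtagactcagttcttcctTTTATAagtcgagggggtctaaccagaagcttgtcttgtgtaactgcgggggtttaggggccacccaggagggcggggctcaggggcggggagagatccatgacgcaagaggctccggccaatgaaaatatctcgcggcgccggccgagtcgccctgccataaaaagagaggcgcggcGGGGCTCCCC
Acod1: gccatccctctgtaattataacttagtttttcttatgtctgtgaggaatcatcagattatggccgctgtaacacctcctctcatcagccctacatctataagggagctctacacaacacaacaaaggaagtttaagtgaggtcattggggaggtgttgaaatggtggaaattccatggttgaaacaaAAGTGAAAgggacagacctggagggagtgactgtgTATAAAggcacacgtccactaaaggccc
A set of 5 motifs, chosen with the results known, was searched on both strands. It held the NF-kB consensus and a long form of the interferon element (2 copies of GAAA on one strand with any 2 bases between them). The others were AANNGAAA (a shorter core bound by interferon regulatory factors), TTCNNNGAA (the core bound by STAT factors) and TATAAA, the TATA box of some core promoters. In Gch1 the NF-kB consensus matched the 10 bases just before the start (-10 to -1), and the box matched on the reverse strand at -188 to -183. In Acod1, AANNGAAA matched at -63 to -56 and the box at -28 to -23. The long form was searched first and matched in 0 of the 3 promoters, and the shorter core, which many more promoters hold, was added after that was seen. No motif matched in the window of Ass1. The matches did not overlap each other. Of all 32851 promoters of this length, 8.46% held the NF-kB consensus, 3.44% the long interferon form, 23.9% AANNGAAA, 8.3% TTCNNNGAA and 13.6% the box, so a match describes letters and not binding.

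Library totals ran from 8.64 to 13.54 M counts (M stands for 1000000), and 3 counts, the limit that a count of 0 allows, came to 0.222 to 0.347 counts per 1000000 counts (CPM). LPS-treated and untreated libraries separated on the first principal component (85.6% of the variance). On the second (4.44%), WT replicate 1 lay apart, at 36.1 untreated and 35.6 with LPS against -12.9 to 3.6 in the other 10 libraries. Replicate 2 was male in all 4 groups, by Xist and Ddx3y. The 8 macrophage markers looked for were present at 64.4 to 2971 CPM, and the 6 lymphocyte and NK cell markers and 4 stromal markers stayed under 1 CPM in every library. Reads of Dot1l did not show the knockout: KO differed from WT by -0.15 ± 0.13 (log2 fold change ± SE; adjusted p = 0.902) untreated and 0.07 ± 0.09 (adjusted p = 0.754) with LPS, which checks nothing about the labels, since the deleted exons are not known. Lyz2 differed by -1.16 ± 0.11 untreated (adjusted p = 0.0784) and -1.17 ± 0.10 with LPS (adjusted p = 0.00143).

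LPS was compared with no treatment in each genotype to see which of these enzymes the cells turn on within 3 hours. In WT cells 6 of the 7 genes with enough reads to test rose: Nos2, Acod1, Slc7a2, Gch1, Arg2 and Ass1. The same 6 rose in KO cells. Such increases were common, with 27.6% of the 11984 genes tested called higher in WT and 30.3% in KO, and 29.8% and 30.9% called lower. Nos2 passed the filter on low counts through its LPS libraries alone, so the 7 tested are not a sample of all members. Asl did not pass in either genotype, and Arg1 was too low to test in any group. In bulk samples such as these, a change in the number of expressing cells and a change in RNA per cell cannot be told apart.

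The arginine transporter Slc7a2 (chromosome 8, 40862341 to 40922070, mm10) had 3.87, 4.71 and 7.3 CPM in replicates 1, 2 and 3 of untreated WT and 8.45, 5.41 and 7.15 CPM in untreated KO. With LPS it had 245.9, 250.4 and 360.2 CPM in WT and 434.5, 287.2 and 378.2 CPM in KO, so every LPS library lay far above every untreated one. The log2 fold change was 5.73 ± 0.26 in WT (53.2-fold, adjusted p = 2.96e-10) and 5.70 ± 0.25 in KO (51.9-fold, adjusted p = 2.04e-10). An exon of Slc7a2 overlaps 473 bp of the lincRNA Gm26584 on the opposite strand, and whether counting was by strand is not known here.

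Nos2 (chromosome 11, 78920787 to 78960226), which makes nitric oxide, was close to silent at rest. Its read counts were 4, 3 and 2 in untreated WT and 13, 1 and 16 in untreated KO, equal to 0.387, 0.211 and 0.147 CPM and to 0.808, 0.0773 and 1.04 CPM. With LPS it reached 916.0, 926.9 and 666.6 CPM in WT and 1152, 1079 and 1337 CPM in KO. From pooled reads, the increase was 3532-fold in WT (95% exact binomial interval 1860 to 7726, from 9 untreated reads) and 1758-fold in KO (1232 to 2607, from 30 untreated reads), where intervals cover counting error only. The fitted log2 fold change was 11.72 ± 0.36 in WT (adjusted p = 7.34e-12) and 10.77 ± 0.32 in KO (adjusted p = 4.78e-12). Every LPS library held at least 5860 reads of Nos2 and no untreated library more than 16, so the groups are far apart while the size of the fold has a wide interval.

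Gch1 (chromosome 14, 47153895 to 47189413), which opens the synthesis of the cofactor of nitric oxide synthase, had 11.7, 21.5 and 18 CPM in untreated WT and 15.9, 15.9 and 20.7 CPM in untreated KO. LPS brought it to 94.6, 131.3 and 105.0 CPM in WT and 136.2, 136.5 and 132.3 CPM in KO. The log2 fold change was 2.68 ± 0.18 in WT (6.41-fold, adjusted p = 2.12e-08) and 2.95 ± 0.18 in KO (7.71-fold, adjusted p = 6.09e-09).

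Of the 2 enzymes that recycle citrulline, Ass1 rose with LPS and Asl did not pass the test. Ass1 (chromosome 2, 31470270 to 31520670) went from 6.77, 6.11 and 5.38 CPM to 19, 16.6 and 16.8 CPM in WT and from 7.02, 3.94 and 8.71 CPM to 20.2, 16.5 and 26.9 CPM in KO. It rose by a log2 fold change of 1.52 ± 0.24 in WT (2.87-fold, adjusted p = 0.000107) and 1.68 ± 0.23 in KO (3.2-fold, adjusted p = 2.59e-05). Asl (chromosome 5, 130011258 to 130024381) stayed in the same range, with 31.3, 39.1 and 42 CPM untreated and 32.2, 39.7 and 36.7 CPM with LPS in WT, and 37.8, 38.4 and 41.6 CPM untreated and 39.5, 42.9 and 41.5 CPM with LPS in KO. Its log2 fold change was -0.05 ± 0.11 in WT (adjusted p = 0.741) and 0.07 ± 0.11 in KO (adjusted p = 0.597).

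Of the arginases, Arg1 (chromosome 10, 24915207 to 24927470), a marker of alternatively activated macrophages, had between 1 and 8 reads in every library. Its summed reads were 10 in untreated WT, 18 in untreated KO, 9 in LPS-treated WT and 18 in LPS-treated KO. The pooled ratio of LPS to untreated was 1.35 in both genotypes (0.487 to 3.71 in WT and 0.665 to 2.76 in KO), and no change was detectable at this depth. Arg2 (chromosome 12, 79130788 to 79156301) rose from 0.774, 1.19 and 1.18 CPM to 3.3, 3.03 and 3.53 CPM in WT and from 1.74, 1.01 and 1.17 CPM to 5.66, 6.83 and 5.36 CPM in KO. That was a log2 fold change of 1.61 ± 0.26 in WT (3.04-fold, adjusted p = 0.000124) and 2.16 ± 0.22 in KO (4.48-fold, adjusted p = 1.23e-06). Arg2 rests on few reads, 8 to 28 per untreated library and 22 to 74 per LPS library. Its exons overlap 285 bp of Vti1b on the opposite strand, and whether counting was by strand is not known here. Vti1b was far higher, at 61.1 to 70.2 CPM in untreated WT. With LPS it rose by 0.21 ± 0.07 in WT (adjusted p = 0.0274) and 0.31 ± 0.07 in KO (adjusted p = 0.00245). The part of such reads in the rise of Arg2 was not tested.

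Acod1 (chromosome 14, 103047012 to 103056573), the itaconate enzyme, had 9, 12.2 and 8.62 CPM in untreated WT and 14.9, 5.26 and 11 CPM in untreated KO. With LPS it had 7909, 6151 and 5680 CPM in WT and 6196, 6370 and 6788 CPM in KO. The log2 fold change was 9.36 ± 0.34 in WT (657.9-fold, adjusted p = 3.21e-11) and 9.26 ± 0.33 in KO (614.4-fold, adjusted p = 2.81e-11). The 2 genotypes overlapped both at rest and with LPS.

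The median log2 fold change of the 7 tested members was 2.68 in WT and 2.95 in KO, beside -0.05 and -0.02 over all genes. These 7 include Nos2, which passed the filter through its LPS libraries alone, and leave out Arg1. Their medians are therefore raised by that choice and do not stand for all members. The scale matters for small changes. The authors' RPKM values (reads per kilobase of transcript and per 1000000 reads), which are divided by library totals with no composition factor, put the median of all genes at -0.57 in WT and -0.59 in KO. On that scale 18.5% of called genes in WT and 18.7% in KO were higher, against 48.1% and 49.5% in the count fit. The 6 induced members rose on both scales, whereas Asl fell in RPKM by 0.59 in WT (adjusted p = 0.00264) and by 0.51 in KO (adjusted p = 0.0061), tested with limma. Relative to the median of all genes its RPKM change was -0.02 and 0.08.

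**Figure D1:**
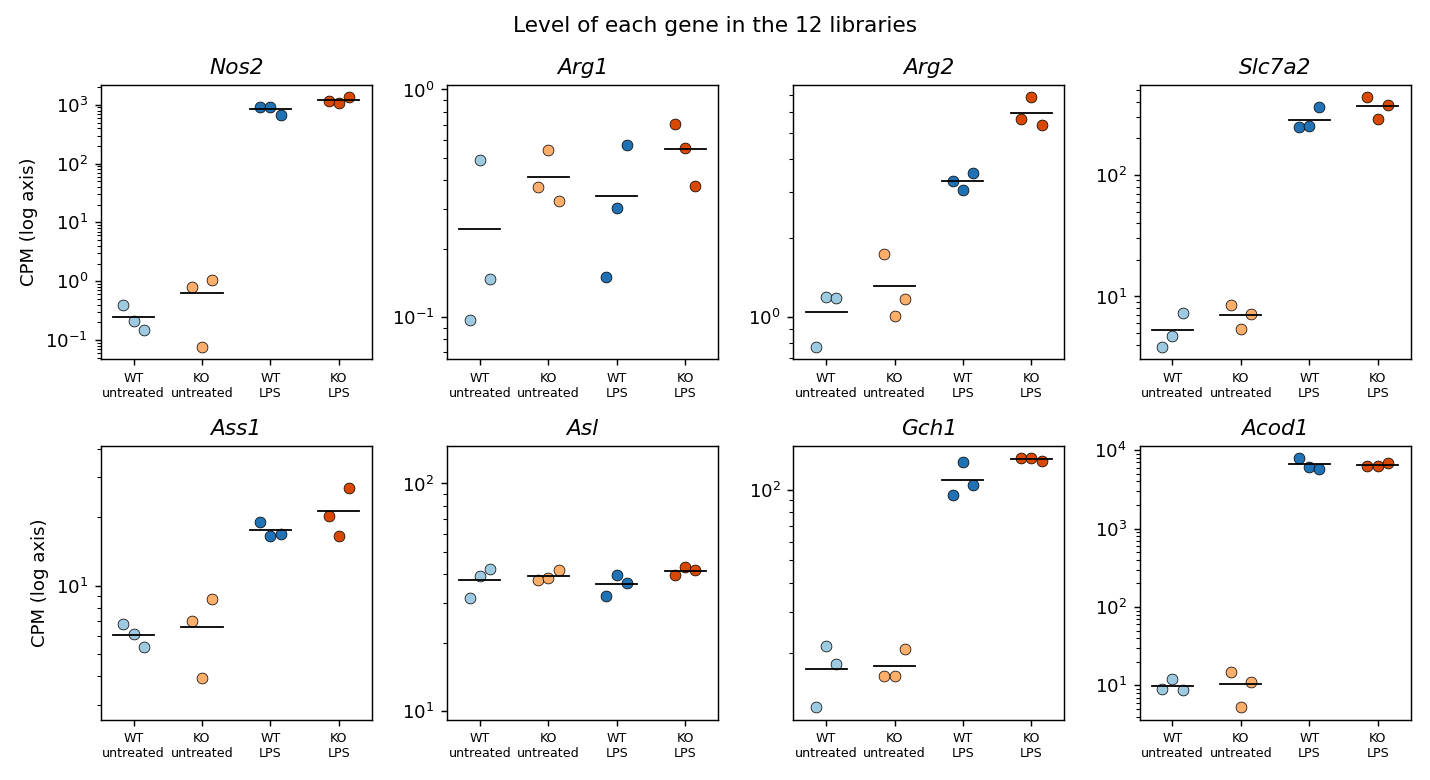
CPM of each of the 8 genes in the 12 libraries (log axis, with a scale of its own in each panel), by group, with 1 point per library and a bar at the group mean. The LPS libraries lie above all untreated libraries for Nos2, Acod1, Slc7a2, Gch1, Arg2 and Ass1, while Asl stays between 31.3 and 42.9 CPM and Arg1 at 1 to 8 reads.

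**Figure D2:**
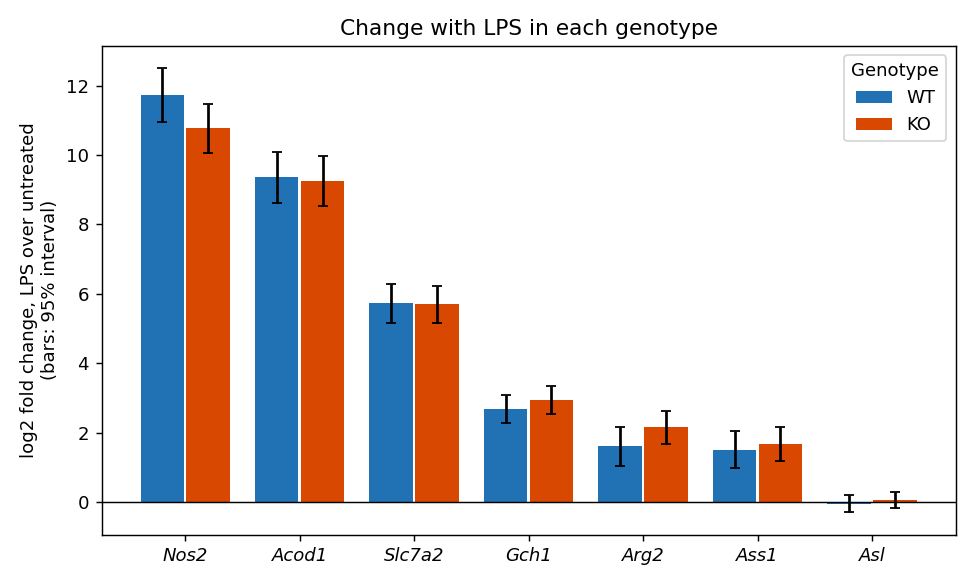
Log2 fold change with LPS in WT and in KO for the 7 genes tested, with 95% intervals from the count fit over 12 libraries. The change of Asl has an interval that spans 0 in both genotypes, and the intervals of WT and KO overlap for each gene.

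KO was then compared with WT within each condition, which asks whether these enzymes differ between the genotypes. Lyz2 differed between them too, and whether the WT mice carry the Lyz2 allele is not stated. An effect of DOT1L loss and one of that allele therefore cannot be told apart here. In untreated cells 6 members had enough reads to test and 0 passed at an adjusted p under 0.05, as did 0% of all 11622 genes tested in edgeR. Their log2 fold changes, KO over WT, were 0.42 ± 0.26 for Slc7a2, 0.33 ± 0.32 for Arg2, 0.15 ± 0.27 for Ass1, 0.09 ± 0.33 for Acod1, 0.09 ± 0.12 for Asl and 0.05 ± 0.22 for Gch1, with adjusted p from 0.845 to 0.988. The 95% intervals ran from -0.18 to 1.02 for Slc7a2, from -0.41 to 1.06 for Arg2, from -0.48 to 0.77 for Ass1, from -0.67 to 0.86 for Acod1, from -0.19 to 0.37 for Asl and from -0.45 to 0.55 for Gch1. Arg2 was at 0.05 without KO replicate 1 and 0.18 without WT replicate 1, and Slc7a2 at 0.26 without WT or KO replicate 1 and 0.72 without WT replicate 3. Differences within these limits could not be told from 0 with 3 libraries per group. For Nos2, the 30 pooled reads of KO against 9 of WT gave a ratio of 2.86 (95% exact binomial interval 1.32 to 6.85, counting error only), but the KO library with 1 read lay below all WT libraries. KO replicate 2 was also the lowest untreated KO library for Arg2, Slc7a2, Ass1 and Acod1. For Arg1 the pooled ratio was 1.55 (0.676 to 3.75).

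Of all genes tested in untreated cells, 7.24% had an unadjusted p under 0.05, and 0 of the 6 members did. Every KO library lay above every WT library for 6.76% of genes and for 0 of the 6 members. DESeq2 called 49 genes and limma-voom 0, with no member among them. Without untreated WT replicate 1, edgeR called 749 genes and still 0 members.

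With LPS, 3 members had every KO library above every WT library: Nos2, Arg2 and Gch1. The same was true of 11.1% of the 11264 genes tested. None of the 7 members tested passed after adjustment in edgeR, as 1.13% of all genes did. Nos2 stood at 836.5 ± 147.3 CPM in WT against 1189 ± 133.3 in KO (SD, n = 3 each), which is 0.50 ± 0.13 as a log2 fold change (95% interval 0.21 to 0.79, adjusted p = 0.113). Arg2 stood at 3.28 ± 0.247 CPM in WT against 5.95 ± 0.779 in KO (SD, n = 3 each), which is 0.85 ± 0.19 (0.42 to 1.28, adjusted p = 0.0679). Gch1 stood at 110.3 ± 18.9 CPM in WT against 135.0 ± 2.36 in KO (SD, n = 3 each), which is 0.28 ± 0.11 (0.04 to 0.52, adjusted p = 0.292), and WT replicate 2 at 131.3 CPM lay just under the lowest KO library at 132.3 CPM. These 3 genes were the members with an unadjusted p under 0.05, a mark that 13.8% of all genes passed.

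Nos2 and Arg2 sit close to the threshold and their calls depended on the procedure. Nos2 passed in DESeq2 (adjusted p = 0.0228) and with no filter on low counts (0.0481), with a range over 15 alternatives of 0.0228 to 0.431. Arg2 passed with no filter (adjusted p = 0.0427), in limma on the authors' RPKM (0.0443) and without LPS-treated WT replicate 1 (0.0379), with a range of 0.0379 to 0.304. Both kept a higher level in KO in all 15, with log2 fold changes of 0.36 to 0.64 for Nos2 and 0.67 to 0.91 for Arg2. Gch1 was at 0.18 without WT replicate 1 (adjusted p = 0.255) and at 0.42 without WT replicate 2 (adjusted p = 0.0641, its smallest, with a range of 0.0641 to 0.576).

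The number of genes called over the whole table moved with single libraries, from 127 to 545 without WT replicate 1 and to 17 without KO replicate 3, 20 without WT replicate 3, 55 without KO replicate 1 and 61 without KO replicate 2. The members' median log2 fold change was 0.28, beside -0.01 over all genes. Arg2 shares 285 bp of exon with Vti1b on the opposite strand and 105 bp with the antisense gene Gm48780. Vti1b, a vesicle fusion protein gene, had 74.5 to 76.7 CPM in WT and 74.8 to 79.6 CPM in KO with LPS, and differed between genotypes by 0.02 ± 0.08 (adjusted p = 0.949).

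The other 5 members overlapped between genotypes after LPS, or were too low to test. Slc7a2 differed by 0.35 ± 0.18 (95% interval -0.05 to 0.75, adjusted p = 0.43), Ass1 by 0.27 ± 0.17 (-0.11 to 0.66, adjusted p = 0.508) and Asl by 0.17 ± 0.10 (-0.05 to 0.40, adjusted p = 0.471). Single libraries moved these values: Ass1 was at 0.06 without KO replicate 3 and 0.43 without KO replicate 2, Asl at 0.10 without WT replicate 1, and Slc7a2 at 0.22 without KO replicate 1 and 0.56 without WT replicate 3. Acod1 differed by -0.04 ± 0.12 (-0.30 to 0.22, adjusted p = 0.917), so its interval leaves room for a decrease of up to 0.30 and an increase of up to 0.22. Without LPS-treated WT replicate 1, its highest WT library, the value turned to 0.12 (adjusted p = 0.339, range over 15 alternatives 0.339 to 0.997). For Arg1 the pooled ratio of KO to WT was 1.55 (0.66 to 3.91).

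Cell type markers were set beside these differences, and 0 of those tested passed between genotypes after adjustment in edgeR, untreated or with LPS. Of the 8 macrophage markers, 3 had every KO library above every WT library with LPS and 1 had every KO library below, as 11.1% and 9.17% of all genes did. An unadjusted p under 0.05 was found for 3 of the 8, Csf1r, Cd68 and Fcgr1, and for 13.8% of all genes. Csf1r, the receptor for M-CSF, had 891.3 to 1112 CPM in WT and 1132 to 1262 in KO (0.23 ± 0.10, adjusted p = 0.325), Itgam 876.3 to 1037 and 1048 to 1088 (0.16 ± 0.09, adjusted p = 0.439) and the Fc receptor gene Fcgr1 388.5 to 433.2 and 442.9 to 563.3 (0.24 ± 0.10, adjusted p = 0.317). Cd68, a lysosomal protein gene, had 1834 to 2971 CPM in WT and 1589 to 1824 in KO (-0.45 ± 0.16, adjusted p = 0.231). The summed macrophage markers overlapped (7848 to 9742 and 8205 to 9435 CPM) while single markers lay apart in opposite directions. Untreated, 4 of the 8 had every KO library above every WT library, Csf1r, Itgam, Fcgr1 and Adgre1, as 6.76% of all genes did. Among 6 markers of dendritic cells, 3 stayed under 1 CPM in every library and none was at 0 in all. Their summed level was 0.811 to 1.27 CPM in untreated WT and 1.62 to 2.27 CPM in untreated KO, and 2.4 to 3.84 CPM in LPS-treated WT and 4.87 to 5.83 CPM in LPS-treated KO. With LPS, 2 of these 6 had every KO library above every WT library and 0 below, as 11.1% and 9.17% of all genes did. They were Xcr1, at 0.749 to 1.71 CPM in WT and 2.58 to 2.73 in KO (0.90 ± 0.30, adjusted p = 0.208), and Ccr7, at 0.505 to 0.91 and 0.973 to 1.41 (0.69 ± 0.38, adjusted p = 0.458). Zbtb46 was at 0.66 ± 0.40 (adjusted p = 0.495) and overlapped between genotypes. So did Siglech, Flt3 (up to 0.303 in WT and 0.0885 in KO) and Clec9a (0.227 to 0.45 and 0.094 to 0.369). Ccr7 and Zbtb46 were near the limit of the filter on low counts, and their KO libraries did most to bring them over it. Their values therefore give no support for a difference between genotypes. Untreated, Xcr1 also lay apart, at 0 to 0.147 CPM in WT and 0.232 to 0.373 in KO, too low to test. The platelet factor gene Pf4 can be expressed by macrophages too. With LPS it had 134.7 to 141.9 CPM in WT and 175.9 to 252.3 CPM in KO (0.57 ± 0.12, adjusted p = 0.0519). Untreated it had 89 to 101.1 and 133.7 to 156.5 CPM (0.59 ± 0.09, adjusted p = 0.156). The 4 erythroid and megakaryocyte markers with Pf4 summed to 134.9 to 142.2 and 176.1 to 252.4 CPM with LPS, nearly all of it Pf4. Of these 4, Itga2b went the other way with LPS. Every KO library of Itga2b (0.0885 to 0.188 CPM) lay below every WT library (0.227 to 0.45 CPM), too low to test. Summed markers overlapped for neutrophils (11.7 to 23.5 CPM in WT and 16.6 to 23.9 CPM in KO with LPS) and for mast cells and basophils (6.29 to 12.7 and 10.4 to 13.6 CPM). The mast cell and basophil sum was nearly all Kit (6.29 to 12.5 and 10.4 to 13.4 CPM), and the other 3 markers had at most 3 reads in every library. The part of these markers' cells in the differences of Nos2, Arg2 and Gch1 was not tested.

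**Figure D3:**
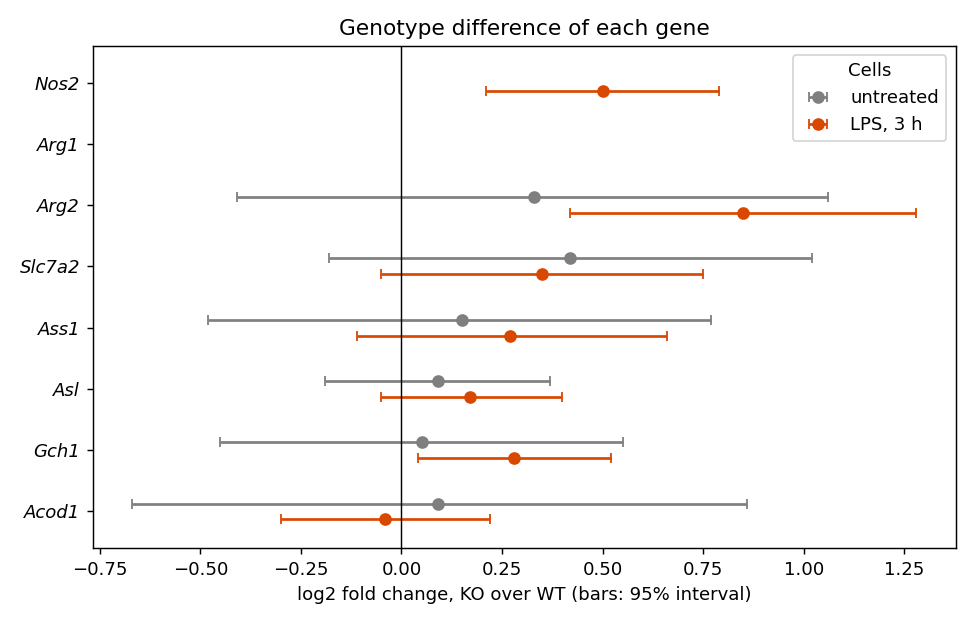
Log2 fold change of KO over WT with 95% intervals, untreated and with LPS, for the members tested. With LPS the intervals of Nos2, Arg2 and Gch1 lie above 0 while those of Slc7a2, Ass1, Asl and Acod1 include it, and untreated all 6 intervals include it.

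Whether LPS acted differently on the genotypes was asked by the interaction, the LPS change in KO minus that in WT. It was 0.56 ± 0.35 for Arg2, 0.27 ± 0.25 for Gch1, 0.16 ± 0.34 for Ass1, 0.12 ± 0.16 for Asl, -0.04 ± 0.33 for Slc7a2, -0.10 ± 0.36 for Acod1 and -0.96 ± 0.71 for Nos2, each with an adjusted p of 1. No member had an unadjusted p under 0.05, beside 2.4% of the 11984 genes tested, and 0% passed in edgeR, as in DESeq2 and limma-voom. With both WT replicate 1 libraries left out, 24 genes passed and none was a member. The intervals were wide, from -2.48 to 0.57 for Nos2, from -0.21 to 1.32 for Arg2 and from -0.87 to 0.67 for Acod1. The Nos2 value also depended on the method and on single libraries, at -0.40 in limma-voom, -0.50 without untreated KO replicate 3 and -1.44 without untreated KO replicate 2. It was -0.05 in RPKM, where 0.1 is added before the log. Untreated means were 0.0623 RPKM in WT and 0.173 in KO, so the added 0.1 bears on that value. For Nos2 the LPS change within same-numbered pairs of libraries was 11.21, 12.10 and 12.14 (log2) in WT and 10.48, 13.77 and 10.33 in KO, where the highest is the pair whose untreated library held 1 read. For Arg2 the pairs gave 2.09, 1.34 and 1.58 in WT and 1.70, 2.76 and 2.20 in KO, which overlap. Neither gene passed between genotypes in the main tests, and whether a difference in Nos2 or Arg2 depends on LPS was not settled.

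Among the enzymes that compete for arginine, Nos2 was set against Arg1 alone, as the log2 ratio of their reads in each library. With LPS it was 11.99, 11.36 and 10.06 in WT and 10.58, 10.81 and 11.63 in KO, so the genotypes overlapped. KO minus WT was -0.13 (exact two-sided permutation p = 0.9, where 0.1 is the smallest p that 3 against 3 libraries allow). Untreated, the difference was -0.06 (exact permutation p = 1), from ratios of 1.58, -1.10 and 0.00 in WT and 1.05, -2.32 and 1.58 in KO. Arg1 has so few reads that these ratios follow single reads, and both differences changed sign with a pseudocount of 5 in place of 0.5 (0.26 untreated and 0.43 with LPS). Arg2 was left out of these ratios, though with LPS its mean RPKM was 9.86 times that of Arg1 in WT and 11.3 times in KO.

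**Figure D4:**
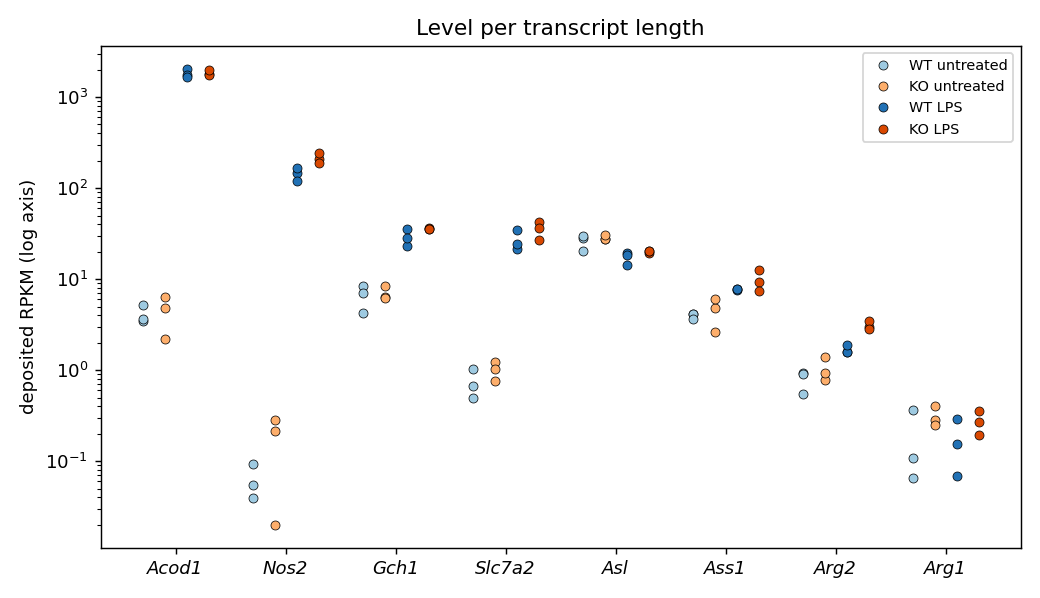
Level per transcript length of the 8 genes in each group, as the authors' RPKM on a log axis, with 1 point per library. In LPS-treated cells Acod1 is highest, followed by Nos2, and Arg1 is lowest, while at rest Asl is highest.

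Levels of different genes were compared as the authors' RPKM, which allow for transcript length. At rest Asl led with 26.3 ± 5.03 RPKM in WT and 28.8 ± 1.83 in KO (SD, n = 3 each), 3.99 and 4.1 times the next gene, Gch1. In untreated WT, Gch1 (6.58 RPKM), Acod1 (4.07) and Ass1 (3.96) overlapped with their neighbours, as did Arg2 (0.792) with Slc7a2 (0.729), and Arg1 (0.179) with Nos2 (0.0623). In untreated KO the order was the same except that Ass1 (4.52) stood before Acod1 (4.47), which overlapped. Gch1 (7.03) lay above every library of Ass1, the next gene by mean, but overlapped with Acod1, whose replicate 1 had 6.4 RPKM against 6.25 in Gch1 replicate 2.

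LPS reordered them. Acod1 became the highest at 1820 ± 205.4 RPKM in WT and 1840 ± 110.6 in KO (SD, n = 3 each), which put it in places 19 and 18 by mean RPKM among all 24445 genes, from places 8260 and 8135 at rest. Nos2 followed at 144.9 ± 22.8 RPKM in WT and 211.9 ± 27.9 in KO, in places 381 and 244, from 13250 and 12645. Gch1 (28.9 in WT and 36 in KO) and Slc7a2 (26.8 and 35.1) overlapped with each other in both genotypes. Below them came Asl (17.3 and 20.1), Ass1 (7.77 and 9.7), Arg2 (1.68 and 3.1) and Arg1 (0.17 and 0.274), and none of these overlapped with its neighbour. The order was the same in WT and KO. The RPKM of Acod1 was 12.6 times that of Nos2 in WT and 8.68 times in KO.

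The rest of the pathway was described from 6 lists with 78 genes in all, none of which was called in either genotype comparison or in the interaction in edgeR. At an unadjusted p under 0.05 stood 4 of the 65 genes tested untreated (6.15%, beside 7.24% of all genes), 6 of 64 with LPS (9.38%, beside 13.8%) and 2 of 65 in the interaction (3.08%, beside 2.4%), shares near or below those of all genes in both genotype comparisons. RLE scaling and limma on RPKM also called 0 of these genes in the 3 comparisons. The smallest adjusted p of the lists between genotypes was that of Oaz1, an antizyme that inhibits Odc1, with LPS, at 0.65 ± 0.16 (16.9 ± 4.09 CPM in WT and 27 ± 1.72 in KO, SD, n = 3 each, adjusted p = 0.0769), a gene named here after its values were seen. Irf1, an interferon regulatory factor that acts on Nos2, was at 0.50 ± 0.12 untreated (41.4 ± 2.38 CPM in WT and 57.7 ± 8.76 in KO, SD, n = 3 each, adjusted p = 0.343). After LPS it differed by 0.01 ± 0.08 (adjusted p = 0.979).

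Around Gch1, the other genes of tetrahydrobiopterin synthesis and recycling had 0 increases with LPS, where 27.6% of all genes rose in WT and 30.3% in KO. Of 7 listed, 5 were tested, of which 0 rose and 1 fell in WT (median -0.02) and 0 changed in KO (median -0.08). The most abundant of them, Qdpr, which regenerates the cofactor, was at 0.09 ± 0.25 in WT and 0.21 ± 0.25 in KO.

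Among 8 transporters of arginine and ornithine, 5 were tested. In WT 2 rose and 2 fell, beside 27.6% and 29.8% of all genes. In KO 3 rose and 1 fell, beside 30.3% and 30.9% of all genes. Slc7a7, a subunit of a transporter that exchanges arginine, rose from 11.1 ± 1.52 to 30.9 ± 3.7 CPM in WT (SD, n = 3 each), by 1.47 ± 0.14 on the log2 scale (adjusted p = 6.62e-07), and by 1.60 ± 0.14 in KO (adjusted p = 1.74e-07). Its partner subunit Slc3a2 rose by 0.66 ± 0.09 in WT and 0.56 ± 0.09 in KO. Relative to the median of all genes, the RPKM change of Slc3a2 was 0.68 in WT and 0.57 in KO, beside medians of -0.57 and -0.59, so its direction in KO flips on the unshifted RPKM scale.

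Downstream of arginase, 15 of 16 genes of ornithine use and polyamines were tested. In WT 3 rose and 3 fell, beside 27.6% and 29.8% of all genes. In KO 5 rose and 3 fell, beside 30.3% and 30.9% of all genes. Odc1, ornithine decarboxylase, the entry to polyamines, rose by 1.24 ± 0.10 in WT (26.2 ± 2.71 to 62.1 ± 3.28 CPM, SD, n = 3 each, adjusted p = 1.15e-07) and by 1.54 ± 0.10 in KO (adjusted p = 9.05e-09). Sat1, which acetylates polyamines for export, rose 2.01-fold in WT and 1.78-fold in KO. Azin1, an activator of Odc1 and the most abundant gene of the list, was at 0.03 ± 0.11 in WT (adjusted p = 0.86) and rose by 0.29 ± 0.11 in KO (adjusted p = 0.0414), a direction that flips on the RPKM scale, where its change of 0.29 relative to the median is smaller than the median's own shift of -0.59. That difference between genotypes had an interaction of 0.26 ± 0.16 (adjusted p = 1).

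Of 13 other arginine and nitric oxide genes, 6 were tested, of which 0 rose and 3 fell in WT and 2 fell in KO, where 29.8% and 30.9% of all genes fell. Nosip, which binds the endothelial synthase, fell by 0.66 ± 0.11 on the log2 scale in WT and by 0.75 ± 0.11 in KO. Nos3, the endothelial synthase, had means of 0.773 CPM in WT and 0.91 in KO untreated, and 0.143 and 0.311 with LPS. It passed the filter on low counts through its untreated libraries alone, which favours a fall, so the 6 tested are not a sample of the list. Its change was -2.28 ± 0.87 in WT (adjusted p = 0.0379), which passed, and -1.56 ± 0.67 in KO (adjusted p = 0.0579). Its RPKM change relative to the median was -0.60 in both, where the 0.1 added before the log shrinks changes of genes this low. Gatm, which uses arginine to make the precursor of creatine, was at 0.22 ± 0.11 in both genotypes (adjusted p = 0.112 in WT and 0.113 in KO).

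The citrate cycle genes around itaconate showed small changes. All 23 were tested. In WT 4 rose and 2 fell (median 0.07), beside 27.6% and 29.8% of all genes. In KO 5 rose and 1 fell (median 0.13), beside 30.3% and 30.9% of all genes. On the authors' RPKM scale none of the 23 rose, and 17 fell in WT and 18 in KO, so the direction of these small changes depends on the scaling. Idh1, the cytosolic isocitrate dehydrogenase, fell by 0.74 ± 0.08 on the log2 scale in both genotypes, to 138.9 ± 0.696 CPM in WT from 231.7 ± 22.6 (SD, n = 3 each, adjusted p = 3.26e-06), and by 0.71 and 0.73 in RPKM relative to the median of all genes. Slc25a10, the mitochondrial dicarboxylate carrier, rose by 0.54 ± 0.15 in WT and 0.55 ± 0.15 in KO, and its RPKM change relative to the median of all genes was 0.59 and 0.56, so its direction in KO flips on the unshifted RPKM scale, whose medians were -0.57 and -0.59. Sdha, the catalytic subunit of succinate dehydrogenase, was at 0.13 ± 0.07 in WT and 0.11 ± 0.07 in KO, and did not pass.

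The transcription factors known for these genes had the largest medians of the 6 lists with LPS. Of 11, 8 rose and 1 fell in each genotype, with medians of 1.22 in WT and 1.52 in KO. Over all genes, 27.6% rose and 29.8% fell in WT, and 30.3% and 30.9% in KO. Irf1 rose by 5.56 ± 0.12 in WT, from 41.4 ± 2.38 to 1958 ± 35.9 CPM (SD, n = 3 each, adjusted p = 4.39e-13), and by 5.10 ± 0.12 in KO (adjusted p = 6.25e-13). Irf8, a related factor of the myeloid lineage, rose by 3.24 ± 0.10 in WT and 3.14 ± 0.10 in KO. In RPKM, 8 factors rose and 3 fell in each genotype. For the other lists, that scale gave 0 higher and 3 lower genes of tetrahydrobiopterin synthesis in each genotype, 1 and 2 transporters, 0 and 5 other arginine genes, and, for ornithine use, 2 higher and 10 lower in WT and 2 and 9 in KO.

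**Figure D5:**
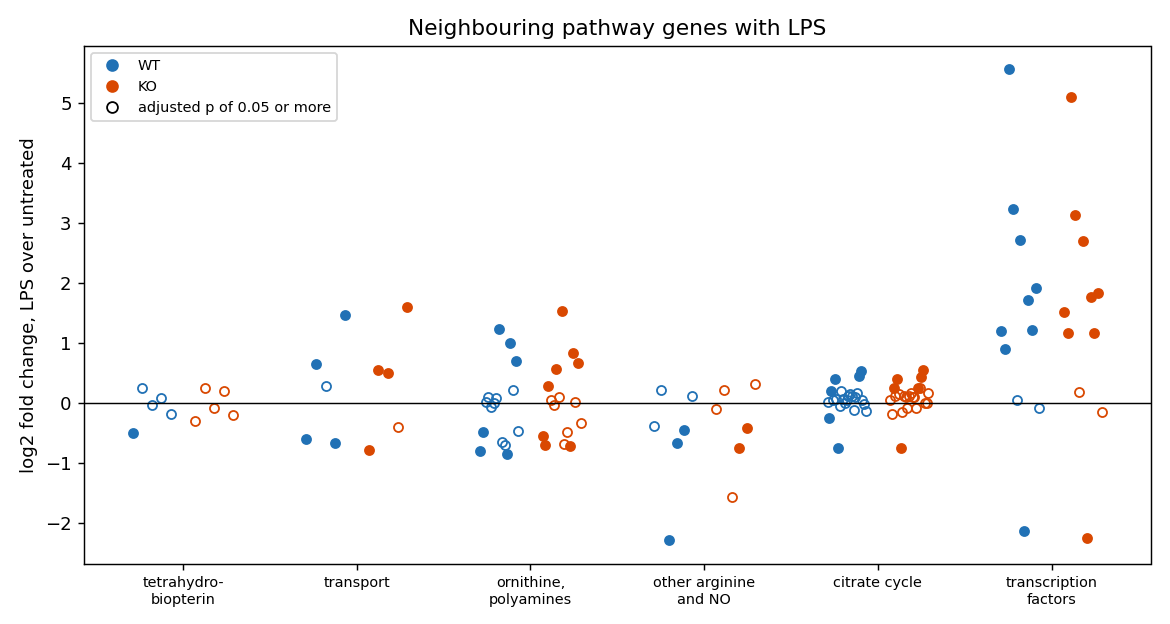
Log2 fold change with LPS of the tested genes of the 6 pathway lists, in WT and in KO, with 1 point per gene, filled where it passed. Citrate cycle genes lie near 0, and the transcription factors reach 5.56 in WT.

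Genes whose profiles over the 12 libraries were most like those of the members were found by the root mean square (RMS) difference of centred log2 CPM, over 9542 genes. Nos2 was most like the chemokine genes Cxcl9 (RMS 0.50) and Cxcl10 (0.55). Acod1 was most like the protease gene Adamts4 (0.34) and Ptgs2 (0.35), which encodes cyclooxygenase 2. Gch1 was most like Relb (0.12), an NF-kB subunit, and the G protein subunit gene Gnb4 (0.15). Slc7a2 was most like Cav1 (0.28), which encodes caveolin 1, and the receptor gene Ccrl2 (0.33). Arg2 was most like the kinase gene Mapk11 (0.18) and Tmtc2 (0.19), Ass1 most like Svbp and the receptor kinase gene Axl (0.25 each), and Asl most like Mtch1 and the proton pump subunit gene Atp6v0d1 (0.06 each).

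The genotype comparison with LPS gave neighbours and members these values. Cav1 was higher in KO by 0.82 ± 0.13 (adjusted p = 0.016) and Ccrl2 differed by 0.06 ± 0.12 (adjusted p = 0.862), beside 0.35 ± 0.18 for Slc7a2. Cxcl9 and Cxcl10 differed by 0.20 ± 0.13 (adjusted p = 0.517) and 0.05 ± 0.08 (adjusted p = 0.838), beside 0.50 ± 0.13 for Nos2. Ptgs2 differed by 0.48 ± 0.13 (adjusted p = 0.125) and Adamts4 by 0.10 ± 0.08 (adjusted p = 0.622), beside -0.04 ± 0.12 for Acod1. Cav1 was the one neighbour of the 14 that passed. Mapk11 was at 0.56 and Tmtc2 at 0.39, beside 0.85 for Arg2, and Relb at 0.24 and Gnb4 at 0.30, beside 0.28 for Gch1. Svbp was at 0.36 and Axl at 0.28, beside 0.27 for Ass1, and Mtch1 at 0.09 and Atp6v0d1 at 0.20, beside 0.17 for Asl. The differences between a member and its neighbour were not tested. All 12 libraries entered each profile, so the LPS change counts heavily in this measure. The same libraries gave the genotype differences, so a likeness of a neighbour's value to its member's is partly built into the choice.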

How the data were processed

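For 12 mRNA libraries and 35745 RefSeq transcripts the authors deposited counts of reads and RPKM, with untreated and LPS-treated cells in separate tables. Per the submitters' processing notes, the build was mm10 and the tools STAR 2.5.2b and SAMtools 1.3.1. What counted the reads, by strand or not, and on which annotation, is not given in the sources used here. Counts as deposited by the authors are whole numbers without normalization. The RPKM values of the authors are the counts over transcript length and a library total, and served for levels between genes and as an alternative.

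RefSeq's GRCm38.p6 table named 35440 transcripts and GENCODE 188 more. The 117 unnamed transcripts (0.259% to 0.738% of counts) were left out. The transcript with the highest total count stood for its gene. The RefSeq table also gave gene coordinates. Isoforms of Nos2 and Slc7a2 shared nearly all reads, since the lowest transcript held 95% and 97.9% of the reads of the highest.

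Tests were edgeR 4.0.16 quasi-likelihood F tests with TMM scaling and filterByExpr, Benjamini-Hochberg adjusted over all genes tested, with a threshold of 0.05 (R 4.3.3). Genotypes were compared on the 6 libraries of a condition, and LPS and the interaction on all 12 as 4 groups. Values after ± are approximate standard errors, the change over the square root of F, unless called SD. CPM are on a TMM scale common to the 12 libraries. Alternatives used DESeq2 1.42.0, limma 3.58.1, RLE scaling, no filter, other transcripts, RPKM (log2 of RPKM + 0.1), a replicate block, other sets of libraries, and each library left out. The scripts were tested on simulated data.

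Same-numbered untreated and LPS libraries of a genotype deviated together from their group means (r = 0.57, 0.56 and 0.30 in WT and 0.25, 0.45 and 0.20 in KO). Libraries of unlike number had r of -0.5 to 0.14 in WT and -0.32 to 0.15 in KO, a narrower margin in KO. The numbers were thus taken as pairs in the replicate block, while the main tests do not use them. This pairing comes from the data and is not stated in the labels.

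The members and the gene lists (tetrahydrobiopterin, transport, ornithine and polyamines, other arginine genes, citrate cycle, transcription factors, and 7 lists of cell markers) were chosen with earlier results of these data known. All members are named. Of a list, genes called between genotypes, the most abundant gene and the 2 largest called LPS changes in WT are named. One gene of the tetrahydrobiopterin list that this rule names is counted but not reported here by name. For likeness, the 2 nearest genes are named, among those with a mean log2 CPM of 2 or more, predicted genes left out.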

Additional observations from a re-analysis of the deposited data

How the results depend on the processing

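The 6 increases with LPS held in both genotypes in every alternative run, and no member passed between genotypes in untreated cells in any. Between genotypes with LPS, 2 members passed with no filter on low counts and 1 each in DESeq2, in limma on RPKM and without WT LPS replicate 1, so leaving out a library gave 0 to 1. Genes called over the whole table were less stable. Untreated, edgeR called 0 genes, against 9 with no filter, 49 in DESeq2, 27 in the fit of all 12 libraries and 0 to 749 when a library was left out. With LPS it called 127, against 276 with no filter, 265 in DESeq2, 17 in the female libraries and 17 to 545 when a library was left out. The interaction had 0, and 24 with both WT replicate 1 libraries left out. The female libraries and the removal of both WT replicate 1 libraries were chosen after seeing the data. Values near 0 changed sign. Acod1 turned to -0.00 untreated and 0.00 in the interaction with limma-voom, to 0.02 with LPS in RPKM, and to 0.07 in the interaction with both WT replicate 1 libraries left out. Asl with LPS in KO was -0.51 in RPKM. The Nos2 to Arg1 difference became 0.26 untreated and 0.43 with LPS at a pseudocount of 5. Leaving out a library gave untreated ranges of -0.12 to 0.40 for Ass1, -0.02 to 0.17 for Asl, -0.15 to 0.24 for Gch1, -0.26 to 0.40 for Acod1, 0.05 to 0.47 for Arg2 and 0.26 to 0.72 for Slc7a2. It gave -0.13 to 0.12 for Acod1 between genotypes with LPS and -0.14 to 0.06 for Asl with LPS in WT. In the interaction it gave -0.37 to 0.17 for Slc7a2, -0.12 to 0.38 for Ass1, -0.43 to 0.23 for Acod1 and -1.44 to -0.50 for Nos2. The Nos2 to Arg1 difference ran from -0.80 to 1.16 untreated and from -0.67 to 0.30 with LPS. Where not set by fewer samples or genes, the cause of these shifts was not tested. Depth limits Arg1 in every group and Nos2 and Arg2 at rest.

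The replicate block changed no call of a member. In the interaction it gave the members tested in edgeR an adjusted p from 0.662 for Gch1 to 0.987 for Acod1. For LPS against no treatment it gave 8156 genes in WT and 8701 in KO, where the fit without it gave 6876 and 7333. Between genotypes, not every pair of same-numbered libraries had r over 0.1 (0.05, 0.18 and 0.26 untreated and -0.03, 0.19 and 0.12 with LPS for numbers 1, 2 and 3), so the numbers were not taken as pairs. That block gave 47 genes with LPS and 0 untreated, with Nos2 at 0.51 (adjusted p = 0.225) and Arg2 at 0.85 (adjusted p = 0.169).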
